A study of Mus musculus with 39 samples.

Results

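The step from day 1 to day 3 of muscle regeneration was followed in whole tibialis anterior, a muscle at the front of the lower leg, of wild-type (WT) mice, by comparing 3 libraries from day 3 with 3 libraries from day 1. Of the 55011 gene symbols counted, 13357 had at least 10 counts in 3 or more of these 6 libraries, and all of these genes are described here. Both groups were wild-type mice that had received diphtheria toxin into the abdomen and a cardiotoxin injury of the hindlimb muscle, and the labels give no age. The same days of Tcrd-DTR mice with both treatments (n = 3 per day) served as a second genotype. In that line γδ T cells carry the diphtheria toxin receptor, so that the toxin, which the WT mice had too, removes them. WT muscle of days 7 and 14 (n = 3 per day) gave the later levels. The libraries came from 2 ng of RNA each in a series of 39 libraries, and the labels call replicates independent.

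Cardiotoxin is a snake venom peptide that breaks the membrane of muscle fibres but spares many of the satellite cells, the stem cells that lie beside each fibre. Neutrophils and monocytes enter the dying tissue first, and macrophages that arise from monocytes then clear the debris. Satellite cells leave quiescence, divide as myoblasts under the control of Pax7, Myf5 and Myod1, and exit the cell cycle with Myog before they fuse into new fibres. Fibro-adipogenic progenitors (FAPs), the connective tissue cells between fibres, and endothelial cells rebuild the matrix and the vessels around them.

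Of the 13357 genes, 2016 (15.1%) were higher and 1983 (14.8%) lower at day 3 than at day 1, 3999 (29.9%) in all. Levels are in CPM, each count divided by its library size as corrected by TMM, a method that sets the bulk of genes level between libraries. A ± after a mean is the SD (n = 3) and after a log2 change the standard error. Each adjusted p comes from the quasi-likelihood test in edgeR, with Benjamini-Hochberg adjustment over all 13357 genes, called below 0.05, and "rose" and "fell" are used of called genes. More than 2-fold changes were seen for 1302 of the higher and 1133 of the lower genes, and more than 8-fold changes for 96 and 55. The median log2 change over all genes was −0.01. The 3 values of day 3 and the 3 of day 1 did not overlap for 44.8% of the genes. Of all genes, 11021 had 10 or more counts in each of the 6 libraries. A further 171 had them in the 3 libraries of day 3 and in none of day 1, and 116 the other way round, so such a gene passed the filter through the day on which it was high. For 224 of the genes the third highest count was 10, and these had a median of 57 counts over the 6 libraries. For 242 genes left out it was 9, with a median of 53.5.

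The libraries held 3579023 to 6502310 counts at day 3 and 4433021 to 5755915 counts at day 1. With library size alone in place of TMM, log2 changes moved up by 0.42 at the median, 3978 genes were higher and 927 lower, all 2016 higher genes were still called, and 925 of the 1983 lower ones. Changes are therefore relative to the bulk of genes. Fibre genes (Acta1, Ckm, Ttn), macrophage genes (Adgre1, Cd68) and FAP genes (Dcn, Lum) were present in all 6 libraries, and 4 skin keratins together stayed under 5 CPM. Day 3 replicate 1 had the highest chi-square per degree of freedom in its group (23.5 and 41.8, against 11.2 for the other pair). It also had the lowest fibre transcripts of day 3. The chi-square grows with depth too, and that library was the deepest of day 3 (6502310 counts). A value in brackets after a count of list members gives the count without 1 library or with library-size scaling, where it moved by more than 1.5 times. Every count of list members stands beside 15.1% higher and 14.8% lower of all genes. In bulk tissue, fewer cells of a type and less of an RNA per cell cannot be told apart, which holds for every result below.

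**Figure D1:**
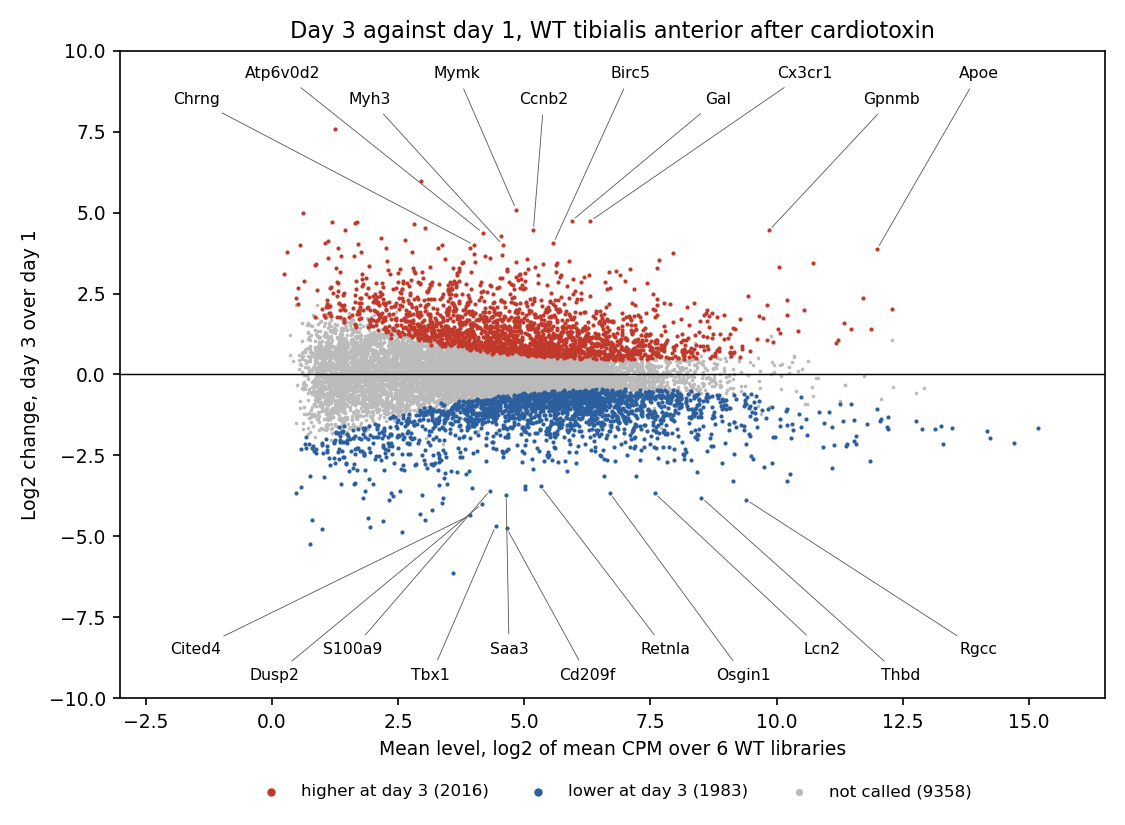
Log2 change from day 1 to day 3 (vertical axis, positive is higher at day 3) against mean level (horizontal axis, log2 of the mean CPM over the 6 WT libraries) for 13357 genes. Coloured points are the 2016 genes that were higher and the 1983 that were lower, and symbols mark those of the 12 largest changes in each direction that the text names.

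Some genes that build new muscle were among the largest rises. Mymk, the membrane protein (myomaker) that lets myoblasts fuse (chromosome 2, 27061636 to 27072179), had 50.2, 56.8 and 59.8 CPM at day 3, against 1.95, 2.11 and 0.809 CPM at day 1. All day 3 values lay far above all day 1 values, a 34.1-fold difference (log2 change 5.09 ± 0.32, adjusted p = 3.68e-07), the largest among called genes that averaged at least 20 CPM on the higher day. Its small partner Mymx (myomerger) had 107, 81 and 60 counts at day 3, against 1, 2 and 0 counts at day 1, a ratio of 68.7 with an exact 95% counting interval of 23.2 to 335 (adjusted p = 7.42e-06), and did not pass the filter on low counts with any 1 day 3 library left out. Myog, the factor that takes myoblasts into differentiation (chromosome 1, 134289989 to 134292548), had 327, 402 and 349 CPM at day 3, against 54.1, 31.6 and 25.7 CPM at day 1. That is a 9.75-fold rise with no overlap (log2 change 3.29 ± 0.26, adjusted p = 1.39e-06). Myh3, the embryonic myosin heavy chain of new fibres (chromosome 11, 67078300 to 67102291), had 40.4, 44.5 and 50.01 CPM at day 3, against 1.67, 5.36 and 1.01 CPM at day 1, again with no overlap (16.01-fold, adjusted p = 1.83e-05). Cardiac troponin T (Tnnt2), which new fibres make for a time, averaged 54.5 CPM at day 3 and 7.89 CPM at day 1, and slow troponin I (Tnni1) 66.3 CPM at day 3 and 15.2 CPM at day 1, and both rose. Myh3 and Tnnt2 belong to a list of embryonic and regenerating sarcomere genes, of which 3 of 13 rose and 6 fell. The median log2 change of that list was −0.69, or −0.30 with library-size scaling.

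Genes of the stem and progenitor stage rose by less. Pax7, which marks satellite cells, had 5.52, 9.57 and 6.35 CPM at day 3, against 1.95, 1.72 and 2.02 CPM at day 1 (log2 change 1.90 ± 0.47, adjusted p = 0.00748). Myf5 did not pass the filter on low counts, with 32, 18 and 9 counts at day 3, against 0, 3 and 5 counts at day 1. Myod1, which commits cells to the myoblast fate (chromosome 7, 46376474 to 46379099), had 234, 233 and 231 CPM at day 3, against 183, 119.5 and 108 CPM at day 1. All 3 values of day 3 were above those of day 1, but the log2 change was only 0.77, and the call (adjusted p = 0.0108) was lost without day 1 replicate 2 (adjusted p = 0.0640) or day 1 replicate 3 (0.0681). Of 13 genes of satellite cell identity 6 rose and none fell (median log2 change 0.25). Among them the adhesion molecule Vcam1, the chemokine receptor Cxcr4 and the proteoglycan core protein Sdc3 rose 2.33-fold to 7.08-fold. Vcam1 and Cxcr4 are made by other cells of injured muscle too, and no value here divides them between cell types.

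The differentiation list went both ways. Of its 27 tested genes 10 rose and 7 fell (4 without day 1 replicate 3 and 3 with library-size scaling), with a median log2 change of −0.05 that became 0.37 with library-size scaling. The adhesion molecule Ncam1 and creatine kinase B (Ckb), both made by young myotubes, rose 3.10-fold to 3.92-fold. The fall with the smallest p was that of Myf6 (MRF4), the regulator kept on in mature fibres, with 37.9, 59.1 and 62.2 CPM at day 3, against 353, 249 and 196 CPM at day 1 (log2 change −2.33 ± 0.25, adjusted p = 1.81e-05). In the fusion list 5 of 15 genes rose (3 without day 3 replicate 1 or 2 or day 1 replicate 3) and 3 fell, beside 15.1% higher and 14.8% lower of all genes. Mymx and Mymk led the rises, and the membrane protein myoferlin (Myof) rose 2.71-fold. The GTPase Rac1 and the integrin chain Itgb1, both made by nearly every cell type, fell 2.05-fold to 3.32-fold.

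In the list of the nerve-muscle synapse 4 of 12 genes rose and 2 fell, beside 15.1% higher and 14.8% lower of all genes. Before a nerve contacts a new fibre, the fibre makes the fetal acetylcholine receptor, with a γ chain, along its whole length. The γ chain Chrng (chromosome 1, 87204657 to 87212694) had 29.6, 30.2 and 31.2 CPM at day 3, against 1.39, 2.87 and 1.21 CPM at day 1 (16.02-fold, log2 change 4.00 ± 0.36, adjusted p = 3.19e-06). The α chain Chrna1 (chromosome 2, 73563215 to 73580338) had 185, 259 and 164 CPM at day 3, against 23.4, 26.1 and 16.2 CPM at day 1 (9.26-fold, adjusted p = 8.37e-07). In neither gene did the days overlap. The collagen tail of acetylcholinesterase (Colq) and the agrin receptor Lrp4 rose 2.33-fold to 5.24-fold, while the kinase Musk and its adaptor Dok7, which organise the mature synapse, fell 2.27-fold to 3.55-fold. The promoters of the receptor genes are shown because both hold the letters CAGCTG, an E-box of the kind that myogenic factors such as Myog are known to bind. The windows run from 250 bases before to 50 after the start of the gene, are taken from RefSeq on GRCm38.p6 (the mm10 build), read 5′ to 3′ along the gene, and carry the matches in capitals (chr1:87205561-87205860, plus strand, for Chrng and chr2:73580289-73580588, minus strand, for Chrna1). RefSeq's start of Chrng, at 87205811, lies inside the GENCODE gene given above, which also holds a transcript with an earlier start.
Chrng: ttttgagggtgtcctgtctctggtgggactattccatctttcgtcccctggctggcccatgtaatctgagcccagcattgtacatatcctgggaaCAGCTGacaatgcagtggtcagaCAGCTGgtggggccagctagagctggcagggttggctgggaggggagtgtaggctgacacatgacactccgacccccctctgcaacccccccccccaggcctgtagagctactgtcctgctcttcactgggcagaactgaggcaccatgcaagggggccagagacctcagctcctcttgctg
Chrna1: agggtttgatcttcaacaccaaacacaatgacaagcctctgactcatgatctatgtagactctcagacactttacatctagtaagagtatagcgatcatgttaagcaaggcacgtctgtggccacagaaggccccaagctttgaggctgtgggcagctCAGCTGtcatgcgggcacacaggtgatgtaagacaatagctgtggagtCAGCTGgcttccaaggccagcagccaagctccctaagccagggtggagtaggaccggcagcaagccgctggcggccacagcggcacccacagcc
Each window has 2 matches, which read the same on both strands. Of the 10 windows of tested synapse genes 4 held CAGCTG (40.0%), against 15.9% of the 13095 windows of all genes described. In the differentiation list 4 of 21 windows held it and in the fusion list 1 of 10. These shares describe the windows and do not show binding.

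**Figure D2:**
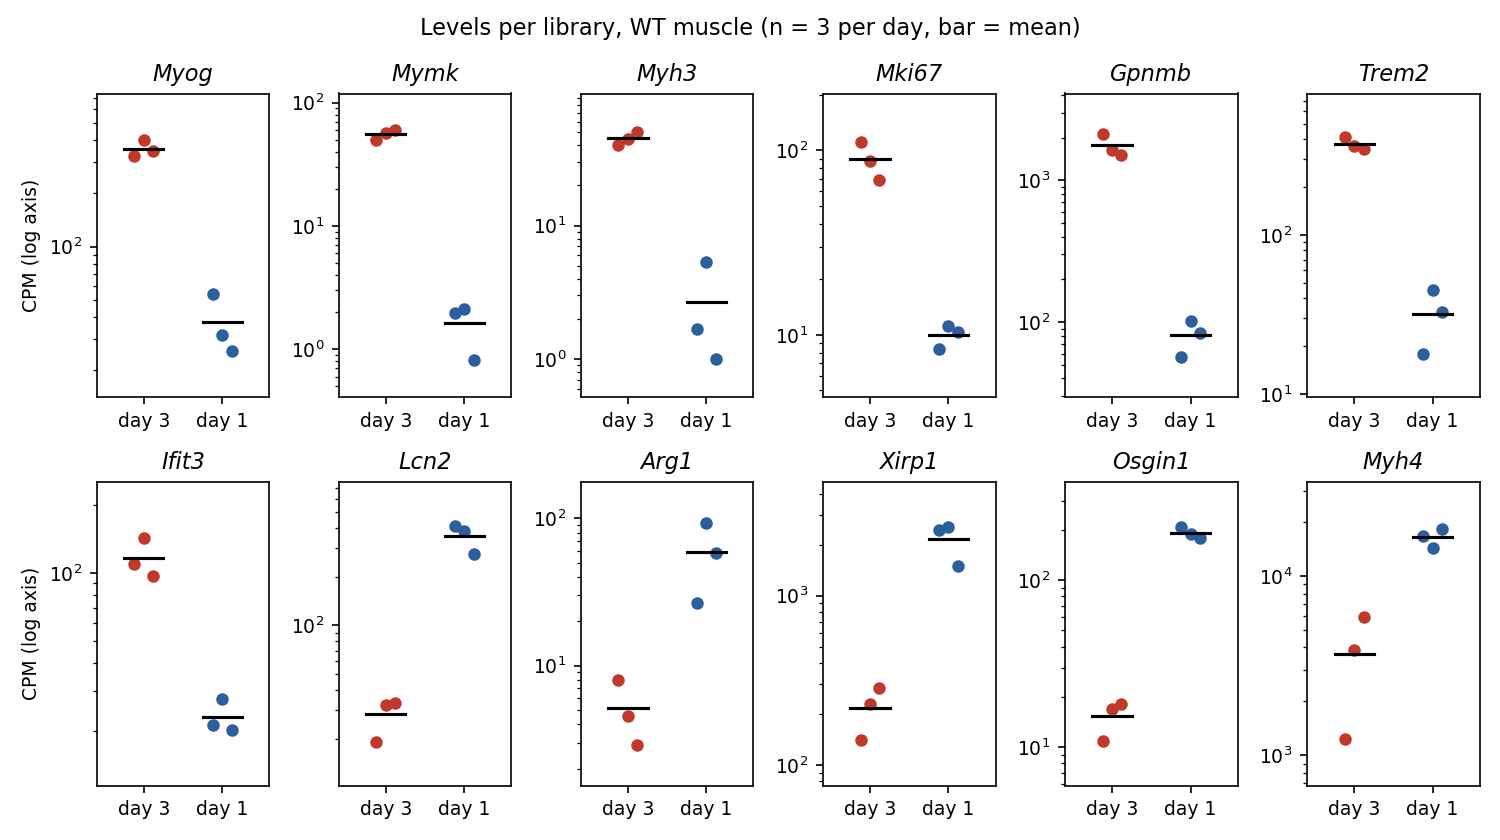
CPM of 12 genes (log axis) in each of the 3 day 3 libraries (left in each pair) and the 3 day 1 libraries (right) of WT muscle, with a bar at each mean. Myog, Mymk, Myh3, Mki67, Gpnmb, Trem2 and Ifit3 lie higher at day 3, Lcn2, Arg1, Xirp1, Osgin1 and Myh4 lower, and in none of the 12 do the days overlap. For Mymk, Myh3, Gpnmb, Lcn2 and Osgin1, which are among the largest changes, the lack of overlap was a condition of choice.

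Genes of cell division rose together. All 33 tested genes of mitosis rose, with a median log2 change of 3.16, and all 33 were still called with any 1 library left out. The proliferation marker Mki67 (chromosome 7, 135689784 to 135716361) had 111, 87.6 and 69.3 CPM at day 3, against 8.37, 11.1 and 10.3 CPM at day 1 (8.95-fold, log2 change 3.16 ± 0.24, adjusted p = 9.52e-07). Cyclin B2 (Ccnb2), which drives entry into mitosis with Cdk1, had 91.2, 62.4 and 54.2 CPM at day 3, against 4.18, 2.49 and 3.03 CPM at day 1 (21.8-fold, adjusted p = 4.9e-07). For both genes the lowest day 3 value was several times the highest day 1 value. Cyclin A2 (Ccna2), survivin (Birc5), the ubiquitin carrier Ube2c, topoisomerase 2α (Top2a) and the centromere histone Cenpa rose 8.06-fold to 16.6-fold.

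Genes of DNA replication rose by less, and some did not pass. Of 34 tested genes 25 were higher and none lower (median log2 change 1.25). The ribonucleotide reductase chain Rrm2, which makes deoxynucleotides in S phase, had 229, 215 and 198 CPM at day 3, against 22.03, 32.9 and 20.8 CPM at day 1, with no overlap (8.43-fold). Its partner Rrm1, thymidine kinase (Tk1), the helicase chain Mcm2, the methylation copying factor Uhrf1 and cyclin E1 (Ccne1) rose 2.64-fold to 3.99-fold. Cell cycle inhibitors and p53 targets went both ways, with 4 of 20 higher (8 with library-size scaling) and 7 lower, beside 15.1% higher and 14.8% lower of all genes. Their median log2 change of −0.11 became 0.32 with library-size scaling. Phlda3, which p53 is known to turn on, had 28.5, 19.98 and 43.1 CPM at day 3, against 369.5, 237 and 197 CPM at day 1 and fell (log2 change −3.14 ± 0.31, adjusted p = 2.13e-05). The ubiquitin ligase Mdm2, the kinase Plk2, Btg2 and Ccng1 fell 2.18-fold to 2.69-fold. The inhibitor p57 (Cdkn1c), an imprinted gene active in differentiating myoblasts, rose 3.53-fold.

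The division lists also differed in promoter letters. The 3 windows shown carry CHR elements (TTTGAA or TTCGAA, the cell cycle genes homology region) and CCAAT boxes in capitals for Ccnb2 (chr9:70421505-70421804, minus strand) and Cdk1 (chr10:69352863-69353162, minus strand), and E2F sites (TTTGGCGC, TTTCGCGC or TTCCCGCC) in capitals for the helicase chain Mcm6 (chr1:128359656-128359955, minus strand).
Ccnb2: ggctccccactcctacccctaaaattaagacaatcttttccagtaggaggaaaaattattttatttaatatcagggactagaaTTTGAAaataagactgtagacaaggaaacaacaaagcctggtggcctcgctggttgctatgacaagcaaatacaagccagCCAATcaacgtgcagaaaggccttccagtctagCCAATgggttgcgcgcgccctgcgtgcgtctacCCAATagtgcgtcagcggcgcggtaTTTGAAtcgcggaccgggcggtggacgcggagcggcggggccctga
Cdk1: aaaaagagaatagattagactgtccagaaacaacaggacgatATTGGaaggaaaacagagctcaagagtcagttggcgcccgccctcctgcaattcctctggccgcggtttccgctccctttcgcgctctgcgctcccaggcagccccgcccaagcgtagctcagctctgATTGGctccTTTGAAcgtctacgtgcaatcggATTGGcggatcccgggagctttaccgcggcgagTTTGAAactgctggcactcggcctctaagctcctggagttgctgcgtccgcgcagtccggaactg
Mcm6: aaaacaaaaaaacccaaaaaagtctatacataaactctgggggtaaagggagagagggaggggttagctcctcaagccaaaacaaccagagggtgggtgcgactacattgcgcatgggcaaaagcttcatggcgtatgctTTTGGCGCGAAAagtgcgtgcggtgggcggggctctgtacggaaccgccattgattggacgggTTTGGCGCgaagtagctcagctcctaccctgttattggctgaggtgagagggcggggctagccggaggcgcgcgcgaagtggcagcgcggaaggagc
The mitotic kinase Cdk1 (89.6 CPM at day 3 and 12.3 CPM at day 1) and Mcm6 (152 CPM at day 3 and 66.6 CPM at day 1) were chosen for these letters after their values were seen. Matches on either strand counted. Ccnb2 and Cdk1 each have 2 CHR and 3 CCAAT matches, and 2 of the 3 E2F matches of Mcm6 overlap one another. The Cdk1 window also holds E2F letters and the Mcm6 window CCAAT letters, which are not in capitals, so these examples are not cleanly split. A CHR match was found in 23 of 29 windows of mitosis genes (79.3%), in 6 of 33 windows of replication genes (18.2%) and in 14.2% of the windows of all genes described. CCAAT was found in 23 of the 29 mitosis windows (79.3%), against 37.2% of all. E2F letters were found in 15 of 33 replication windows (45.5%), in 1 of 29 mitosis windows (3.45%) and in 5.23% of all. The shares are descriptions, since the genes of each list were chosen by function.

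Ribosome and proteasome genes changed by small amounts. Of 30 cytosolic ribosomal protein genes 13 rose (4 without day 1 replicate 2 or 3, 8 without day 3 replicate 1 and 27 with library-size scaling) and 1 fell (0 without day 3 replicate 2 or any 1 day 1 library and 0 with library-size scaling) (median log2 change 0.47). Rpl3 had 589 CPM at day 3 and 334 CPM at day 1, and Rpl23 365 CPM at day 3 and 213 CPM at day 1. Of 25 ribosome biogenesis genes 7 fell (1 without day 3 replicate 2, 2 without day 1 replicate 1, 3 without day 1 replicate 2 and 1 with library-size scaling) and 1, nucleophosmin (Npm1), rose (2 with library-size scaling) 1.70-fold, and the median log2 change of −0.37 became 0.05 with library-size scaling. The growth regulator Myc, counted in that list, fell 2.59-fold. Of 23 standard proteasome chains 7 fell (3 without day 3 replicate 2 and 1 with library-size scaling) and none rose (1 with library-size scaling), and their median log2 change of −0.31 became 0.11 with library-size scaling. Of 13 polyamine enzymes 3 rose and 6 fell. The synthesis enzymes Odc1 and Srm and the spermine oxidase Smox, itself a breakdown enzyme, fell 2.77-fold to 5.56-fold. Other breakdown enzymes, Sat1 and Paox, rose 2.46-fold to 3.23-fold.

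Most macrophage genes were higher at day 3. Of 19 general macrophage genes 14 rose and none fell (1 without day 3 replicate 1; median log2 change 1.76). Adgre1, the F4/80 surface protein (chromosome 17, 57358691 to 57483527), had 422, 285 and 266 CPM at day 3, against 52.1, 93.5 and 71.6 CPM at day 1 (4.47-fold, log2 change 2.16 ± 0.24, adjusted p = 2.39e-05). The fractalkine receptor Cx3cr1, high on macrophages and low on fresh inflammatory monocytes, had 169, 163 and 128 CPM at day 3, against 3.90, 9.77 and 3.03 CPM at day 1 (26.8-fold, adjusted p = 2.08e-06). Every day 3 value of both genes exceeded every day 1 value. The monocyte gene Ly6c2 had 35.7, 26.4 and 19.1 CPM at day 3, against 12.8, 24.3 and 18.2 CPM at day 1, with overlap between days and no call (adjusted p = 0.174, or 0.0296 and called with library-size scaling).

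Of 27 genes of lipid-associated and repair macrophages 21 rose and 1 fell (median log2 change 1.84). Gpnmb, a glycoprotein of macrophages filled with debris (chromosome 6, 49036546 to 49070929), had 2142, 1644 and 1512 CPM at day 3, against 56.6, 102 and 83.8 CPM at day 1 (21.9-fold, log2 change 4.45 ± 0.28, adjusted p = 3.68e-07). The lipid-sensing receptor Trem2 (chromosome 17, 48346401 to 48354147) had 416, 362 and 348 CPM at day 3, against 17.8, 44.8 and 32.8 CPM at day 1 (11.7-fold, adjusted p = 2.08e-06). Osteopontin (Spp1, chromosome 5, 104435118 to 104441050), a secreted adhesion protein, had 3945, 2496 and 2836 CPM at day 3, against 119, 467 and 274 CPM at day 1 (10.8-fold, adjusted p = 0.000161). In none of the 3 genes did the days overlap. Apolipoprotein E (Apoe), the fatty acid carrier Fabp5, the proton pump chain Atp6v0d2 and the elastase Mmp12 rose 7.06-fold to 20.7-fold. The member that fell was Arg1, the arginase of alternatively activated macrophages, with 8.03, 4.58 and 2.91 CPM at day 3, against 26.8, 92.9 and 58.7 CPM at day 1 (10.9-fold lower, adjusted p = 0.000508). Retnla, a resistin-like gene known from the same state, was among the 12 largest falls (10.9-fold lower), so both genes fell while 21 genes of the list rose.

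Lysosome genes rose in 16 of 27 cases and fell in 1 (2 without day 3 replicate 1 or 3) (median log2 change 0.91). The protease Ctsh had 399, 305 and 283 CPM at day 3, against 44.3, 77.6 and 72.2 CPM at day 1 (5.07-fold, adjusted p = 7.42e-06). The glycosidases Hexa and Glb1, progranulin (Grn) and the cholesterol carrier Npc2 rose 3.54-fold to 4.91-fold. A promoter is shown for the protease cathepsin D (Ctsd, 4154 CPM at day 3 and 1561 CPM at day 1, chosen after its values were seen), with the core of the CLEAR element (TCACGTGA or TCACGTGC on either strand), which the lysosomal regulator TFEB is known to bind, in capitals (chr7:142387778-142388077, minus strand).
Ctsd: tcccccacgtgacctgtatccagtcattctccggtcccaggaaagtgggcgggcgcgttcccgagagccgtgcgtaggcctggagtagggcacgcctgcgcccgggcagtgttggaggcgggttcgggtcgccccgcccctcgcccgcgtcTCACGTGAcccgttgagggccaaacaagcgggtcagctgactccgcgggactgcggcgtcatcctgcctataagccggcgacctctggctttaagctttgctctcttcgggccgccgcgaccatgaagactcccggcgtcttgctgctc
Such a core was found in 6 of 29 windows of tested lysosome genes (20.7%), against 2.88% of the windows of all genes described. Of 18 receptors and bridging proteins for dying cells 11 rose and 1 fell (0 without day 3 replicate 2 or 3 or day 1 replicate 1 and 0 with library-size scaling), and the kinase receptor Mertk, the scavenger receptors Stab1 and Cd36 and the macrophage protein Cd5l rose 2.30-fold to 7.87-fold. The cholesterol exporters Abca1 and Abcg1 rose 3.70-fold to 6.20-fold.

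Genes that handle haem and iron rose in 7 of 15 cases and fell in 2 (1 without day 3 replicate 3), beside 15.1% higher and 14.8% lower of all genes. The biliverdin reductases Blvra and Blvrb, the ferritin light chain Ftl1 and the phagosome metal pump Slc11a1 rose 2.20-fold to 3.02-fold. Haem oxygenase (Hmox1), which opens the ring, had 259.6, 225 and 166 CPM at day 3, against 257, 214 and 222 CPM at day 1 and was not called (adjusted p = 0.774). Of 19 complement genes 5 rose and 4 fell. The C1q chains C1qa and C1qb and the receptor C3ar1, which macrophages make, rose 4.56-fold to 5.31-fold, whereas C3, C4b and the C1 inhibitor Serping1 fell 2.66-fold to 4.15-fold. The third C1q chain, C1qc, had 202, 130 and 179 CPM at day 3, against 75.3, 114 and 138 CPM at day 1, with overlap between days. Its log2 change was 0.65 in a fit that also held Tcrd-DTR muscle, and it was chosen after its values were seen.

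Interferon-stimulated genes were higher in nearly every case, 27 of 28 called and none lower (median log2 change 1.63). The antiviral gene Ifit3 (chromosome 19, 34583531 to 34588731) had 109, 143 and 96.6 CPM at day 3, against 21.2, 27.8 and 20.2 CPM at day 1, with no overlap (5.02-fold, log2 change 2.33 ± 0.21, adjusted p = 4.35e-06). Viperin (Rsad2), Mx1, tetherin (Bst2), Oasl2 and the regulator Irf7 rose 2.99-fold to 6.62-fold. The chemokine Cxcl10, which interferon induces, had 12.4, 39.3 and 17.5 CPM at day 3, against 5.02, 4.02 and 3.44 CPM at day 1 (adjusted p = 0.000785). Promoters are shown for Ifit3 (chr19:34583279-34583578, plus strand) and its neighbour Ifit1 (69.6 CPM at day 3 and 19.8 CPM at day 1, chosen after its values were seen, chr19:34640639-34640938, plus strand), with the letters of the interferon response element (GAAA, NN for any pair of bases, and GAAA), on either strand, in capitals.
Ifit3: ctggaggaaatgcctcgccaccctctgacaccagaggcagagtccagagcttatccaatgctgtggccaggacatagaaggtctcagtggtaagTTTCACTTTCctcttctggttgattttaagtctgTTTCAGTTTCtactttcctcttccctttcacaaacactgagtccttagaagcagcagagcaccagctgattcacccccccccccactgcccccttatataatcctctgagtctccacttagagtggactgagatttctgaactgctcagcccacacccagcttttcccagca
Ifit1: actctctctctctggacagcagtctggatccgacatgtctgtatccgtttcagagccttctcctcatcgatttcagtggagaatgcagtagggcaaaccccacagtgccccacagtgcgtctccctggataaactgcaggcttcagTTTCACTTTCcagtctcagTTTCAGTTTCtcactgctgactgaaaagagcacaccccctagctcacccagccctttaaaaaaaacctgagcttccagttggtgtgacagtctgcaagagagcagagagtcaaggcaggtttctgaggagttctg
Each has 2 matches. Of 24 windows of tested interferon genes 13 held the letters (54.2%), against 3.18% of the windows of all genes described. Of 12 windows of the immunoproteasome and peptide loading genes 2 held them (16.7%).

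Antigen presentation genes rose as well. All 12 tested genes of the immunoproteasome and of peptide loading were higher (median log2 change 1.04), of which Psmb10 and Psme1 were not called without day 1 replicate 3. The proteasome chain Psmb9 had 45.4, 50.4 and 41.3 CPM at day 3, against 12.3, 13.03 and 14.4 CPM at day 1 (adjusted p = 4.63e-05). The chain Psmb8, the peptide pump Tap1, β2-microglobulin (B2m), the class I chain H2-K1 and their activator Nlrc5 rose 2.13-fold to 3.43-fold. Of 18 genes of class II and dendritic cells 10 rose and 1 fell (0 without any 1 day 3 library or day 1 replicate 1 or 2 and 0 with library-size scaling) (median log2 change 0.97). The class II chains H2-Aa and H2-Eb1, the loading factor H2-DMa, the regulator Irf8 and the integrin Itgax rose 1.80-fold to 3.51-fold, Itgax not being called in a fit of the 12 WT libraries of all days (adjusted p = 0.0584).

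Most called genes of the first inflammatory wave went the other way. Of 13 neutrophil genes 8 fell (4 without day 1 replicate 2 and 5 without day 1 replicate 3) and 1 rose (0 without day 1 replicate 3) (median log2 change −1.94). The collagenase Mmp8, the member that rose, had 19.5 CPM at day 3 and 4.72 CPM at day 1, with no overlap (4.00-fold, adjusted p = 0.0109). Lipocalin (Lcn2, chromosome 2, 32384633 to 32388252), found in neutrophil granules and also made by other cells under IL-17 or IL-1, had 19.2, 32.3 and 33.3 CPM at day 3, against 411, 381 and 276 CPM at day 1, with no overlap (12.7-fold lower, log2 change −3.67 ± 0.25, adjusted p = 4.9e-07). The calgranulin chain S100a9 had 5.89, 0.624 and 1.85 CPM at day 3, against 17.3, 62.6 and 31.96 CPM at day 1 (11.996-fold lower, adjusted p = 0.0041). Its partner S100a8 had 12.2, 3.54 and 4.50 CPM at day 3, against 11.99, 69.9 and 42.3 CPM at day 1. These overlapped, since the lowest day 1 value lay just under the highest of day 3, and the call (adjusted p = 0.0187) was lost without day 3 replicate 2 (adjusted p = 0.0790) or day 3 replicate 3 (0.0541) and with no filter on low counts (0.104). The chemokine receptor Cxcr2 had 0.603 CPM at day 3 and 15.9 CPM at day 1, and the decoy receptor Il1r2 2.24 CPM at day 3 and 17.3 CPM at day 1, both called, though Cxcr2 did not pass the filter with any 1 day 1 library left out.

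Of the 15 tested genes in the list of neutrophil chemoattractants and IL-17 targets 10 fell and none rose (median log2 change −2.98). The chemokine Cxcl5 had 4.52, 3.33 and 1.85 CPM at day 3, against 15.1, 33.7 and 31.2 CPM at day 1 (adjusted p = 8.62e-05). Cxcl2 had 1.00, 0.624 and 0 CPM at day 3, against 4.46, 19.9 and 4.05 CPM at day 1 (adjusted p = 0.00357), and did not pass the filter with any 1 day 1 library left out. Il1b, interleukin 1β, had 1.51, 2.50 and 2.38 CPM at day 3, against 10.6, 27.4 and 19.4 CPM at day 1 (adjusted p = 9.65e-05). In none of the 3 genes did the days overlap, and day 3 levels were within a few CPM of 0. The acute-phase gene Saa3, the factor Cebpd and stromelysin (Mmp3), targets of IL-17 and IL-1, fell 7.53-fold to 13.1-fold. Lcn2 and S100a8 count in both lists. Il6 had 10, 6 and 9 counts at day 3, against 1, 9 and 9 counts at day 1, and did not pass the filter.

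Other cytokine genes went both ways. The IL-6 pathway genes Socs3 and Stat3 fell 2.59-fold to 5.01-fold, and the TNF receptor Tnfrsf1b and the IL-18 inhibitor Il18bp rose 2.74-fold to 3.14-fold. Of 19 chemokines 4 were higher and 9 lower. Cxcl16, the membrane-bound chemokine of macrophages, had 119, 114 and 96.6 CPM at day 3, against 10.6, 21.5 and 22.1 CPM at day 1, with no overlap (6.01-fold, adjusted p = 6.28e-06). Pf4 and Ccl5 rose 2.31-fold to 5.62-fold, Ccl5 not passing the filter with any 1 day 3 library left out, and Cxcl14 and the platelet chemokine Ppbp fell 3.36-fold to 10.7-fold. The monocyte attractant Ccl2 had 165, 102 and 79.9 CPM at day 3, against 152, 269.9 and 197 CPM at day 1, with overlap between days. Its call (adjusted p = 0.0358) was lost with library-size scaling (adjusted p = 0.314) and without day 1 replicate 2 (0.138), day 1 replicate 3 (0.0730), day 3 replicate 2 (0.148) or day 3 replicate 3 (0.103), and in the fits of 12 WT libraries (0.0653) and of 23 libraries of both genotypes (0.17).

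The 12 largest falls included Osgin1 (chromosome 8, 119434124 to 119446256), an oxidative stress response gene, which had 10.9, 16.9 and 18.3 CPM at day 3, against 209, 189 and 179 CPM at day 1 (12.7-fold lower, log2 change −3.67 ± 0.22, adjusted p = 3.1e-07). Thrombomodulin (Thbd, chromosome 2, 148404466 to 148408188), the clotting brake of cell surfaces, had 53.4, 46.4 and 46.3 CPM at day 3, against 738, 757 and 548 CPM at day 1 (13.9-fold lower, adjusted p = 1.5e-07). Rgcc, a regulator of the cell cycle, had 58.7, 84.9 and 116 CPM at day 3, against 1420.0, 1229 and 1147 CPM at day 1 (14.7-fold lower, adjusted p = 5.39e-07). No day 3 value of these 3 genes reached a day 1 value, which the choice of the 12 largest falls required. The 12 largest falls also held the T-box factor Tbx1 (1.56 CPM at day 3 and 41.7 CPM at day 1), the lectin Cd209f (1.73 CPM at day 3 and 48.6 CPM at day 1), the cofactor Cited4 (1.56 CPM at day 3 and 28.8 CPM at day 1) and the phosphatase Dusp2 (2.23 CPM at day 3 and 33.6 CPM at day 1). In the metallothionein and oxidative stress list 9 of 20 genes fell and 4 rose (2 without day 3 replicate 1 or day 1 replicate 3) (median log2 change −0.78). The metallothioneins Mt1 and Mt2, the thioredoxin reductase Txnrd1 and sulfiredoxin (Srxn1) fell 3.60-fold to 5.76-fold.

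In the integrated stress response list 10 of 20 genes fell and 2 rose (1 without day 3 replicate 2 or 3 or any 1 day 1 library and 5 with library-size scaling). The stress factor Atf3 had 91.8, 64.5 and 67.7 CPM at day 3, against 327, 439 and 302 CPM at day 1, with no overlap (log2 change −2.25 ± 0.21, adjusted p = 5.15e-06). The phosphatase chain Ppp1r15a, the factors Ddit3 and Xbp1 fell 2.56-fold to 6.51-fold, and the serine synthesis enzyme Phgdh rose 4.77-fold. Of 22 immediate early genes 11 fell and 1 rose (0 without day 3 replicate 1 or day 1 replicate 2 or 3), and Ier3, the phosphatase Dusp1 and the factors Egr1 and Fosl1 fell 3.52-fold to 6.62-fold. Chaperone genes fell in 8 of 19 cases (5 with library-size scaling) and rose in 3 (5 with library-size scaling), and their median log2 change of −0.44 became −0.01 with library-size scaling. The small heat shock proteins Hspb1, αB-crystallin (Cryab) and Hspb7, abundant in muscle, fell 3.82-fold to 5.53-fold, and the mitochondrial chaperonin Hspe1 rose 1.98-fold. Hypoxia genes fell in 5 of 18 cases and 1 rose (0 without day 1 replicate 2), with hexokinase 2 (Hk2) and the glucose transporter Slc2a1 lower by 3.37-fold to 4.65-fold.

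Of 18 genes of fibre wounding 11 were lower and 2 higher (0 without day 3 replicate 3 or day 1 replicate 2 or 3 and 1 without day 3 replicate 1 or 2) (median log2 change −1.26). Xirp1, an actin-binding protein of damaged sarcomeres (chromosome 9, 120013755 to 120023598), had 139.6, 229 and 285 CPM at day 3, against 2425, 2534 and 1496 CPM at day 1 (9.88-fold lower, log2 change −3.30 ± 0.31, adjusted p = 5.95e-06). Filamin C (Flnc), which gathers at sarcomere tears, had 351, 476 and 729 CPM at day 3, against 4589, 3726 and 3232 CPM at day 1 (7.42-fold lower, adjusted p = 1.83e-05). The days did not overlap in either gene. The cofactors Ankrd1 and Mustn1 and the TWEAK receptor Tnfrsf12a fell 3.28-fold to 6.15-fold. Of 15 genes of muscle atrophy and the glucocorticoid response 7 fell and 2 rose (1 without day 3 replicate 2 or day 1 replicate 1 or 3). The ubiquitin ligases Trim63 and Fbxo32, the glucocorticoid target Tsc22d3 and the kinase Pdk4 fell 2.56-fold to 4.32-fold.

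The transcripts of mature fibres fell too, by amounts that varied among the day 3 libraries. The 23 genes of the fast and adult sarcomere summed to 25357 to 94340.0 CPM at day 3 and 148620.0 to 199060.0 CPM at day 1. Of them 17 fell (8 without day 3 replicate 2, 9 without day 1 replicate 1 and 11 without day 1 replicate 3) and none rose (median log2 change −1.55). Fast myosin Myh4 (chromosome 11, 67238029 to 67260446) had 1239.6, 3862 and 5935 CPM at day 3, against 16685, 14325 and 18314 CPM at day 1 (4.47-fold lower, log2 change −2.16 ± 0.48, adjusted p = 0.0039). Skeletal actin Acta1 (chromosome 8, 123891769 to 123894751) had 8755, 16682 and 28699 CPM at day 3, against 64742, 44937 and 59077 CPM at day 1, with no overlap and a log2 change of −1.64. Its call (adjusted p = 0.0217) was lost without day 3 replicate 2 (adjusted p = 0.125), day 1 replicate 1 (0.0504) or day 1 replicate 3 (0.0742). Creatine kinase Ckm had 3115, 7675 and 12760.0 CPM at day 3, against 35533, 24133 and 31571 CPM at day 1, and its call (adjusted p = 0.00771) was lost without day 3 replicate 2 (adjusted p = 0.0515). In both genes day 3 replicate 1 was lowest and day 3 replicate 3 highest of the day. The α-actinin Actn3, the myosin-binding protein Mybpc2, the light chain Myl1 and the troponin Tnni2 fell 3.20-fold to 4.59-fold, each also with any 1 library left out. With no filter on low counts, which adds weakly counted genes to the fit, the calls of Myh4 (adjusted p = 0.211), Ckm (0.173), Actn3 (0.0832) and Mybpc2 (0.0694) were lost, at log2 changes that moved by less than 0.1. Of 10 slow fibre genes 3 fell and 1, Tnni1, rose (3 without day 1 replicate 3 and 3 with library-size scaling), and the median log2 change of −0.20 became 0.22 with library-size scaling. Slow myosin Myh7, its light chain Myl2 and the sarcomere protein Csrp3 fell 3.72-fold to 8.25-fold.

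Metabolic genes of fibres were lower as well. Of 18 muscle glycolysis genes 14 fell (9 without day 3 replicate 2) and none rose (median log2 change −1.36). Glycogen phosphorylase (Pygm), phosphofructokinase (Pfkm), pyruvate kinase (Pkm) and Gapdh fell 2.60-fold to 4.45-fold, and Pygm was not called without a filter on low counts (adjusted p = 0.124). Of 28 nuclear genes of the respiratory chain 20 fell (3 without day 3 replicate 2, 10 without day 1 replicate 1 and 6 with library-size scaling) and none rose (1 with library-size scaling; median log2 change −0.80). The complex I chain Ndufv1 fell 2.08-fold and was called whichever library was left out. Of 11 genes encoded by mitochondrial DNA none was called (median log2 change −0.40), and mt-Nd4, with the smallest p, had 901, 1389.8 and 1592 CPM at day 3, against 1678, 2325 and 2184 CPM at day 1 (adjusted p = 0.0718). It was lower and called by DESeq2 (adjusted p = 0.0136), with no filter (0.00403), in the fit of 12 WT libraries (0.0453), with an offset for GC content and length (0.00297) and without day 3 replicate 3 (0.0359), and 1 gene of the list was also called lower without day 1 replicate 1.

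Of 16 calcium handling genes 7 fell (3 without day 1 replicate 1, 4 without day 3 replicate 2 and 13 without day 3 replicate 3) and 2 rose (1 without day 3 replicate 3 or day 1 replicate 2 or 3). The calcium pump Atp2a1 and the buffer Pvalb of fast fibres fell 4.30-fold to 4.43-fold, and the slow calsequestrin Casq2 rose 3.08-fold. With no filter on low counts Atp2a1 was not called (adjusted p = 0.192). Of 20 fatty acid oxidation genes 10 fell (2 without day 3 replicate 2 or day 1 replicate 1, 3 without day 3 replicate 1, 6 without day 1 replicate 2 and 2 with library-size scaling), while the carnitine transferase Cpt1a and Cd36, which macrophages make too, rose. The creatine synthesis enzyme Gatm had 86.5, 75.3 and 65.6 CPM at day 3, against 8.92, 14.4 and 10.1 CPM at day 1 and rose (log2 change 2.75 ± 0.23, adjusted p = 2.22e-06), whereas the creatine importer Slc6a8 and the mitochondrial kinase Ckmt2 fell 2.62-fold to 3.26-fold. In the dystrophin and membrane repair list 9 of 19 genes fell (5 with library-size scaling), dysferlin (Dysf) and caveolin 3 (Cav3) by 2.74-fold to 2.75-fold, and the annexins Anxa1 and Anxa5 rose 2.38-fold to 2.67-fold.

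**Figure D3:**
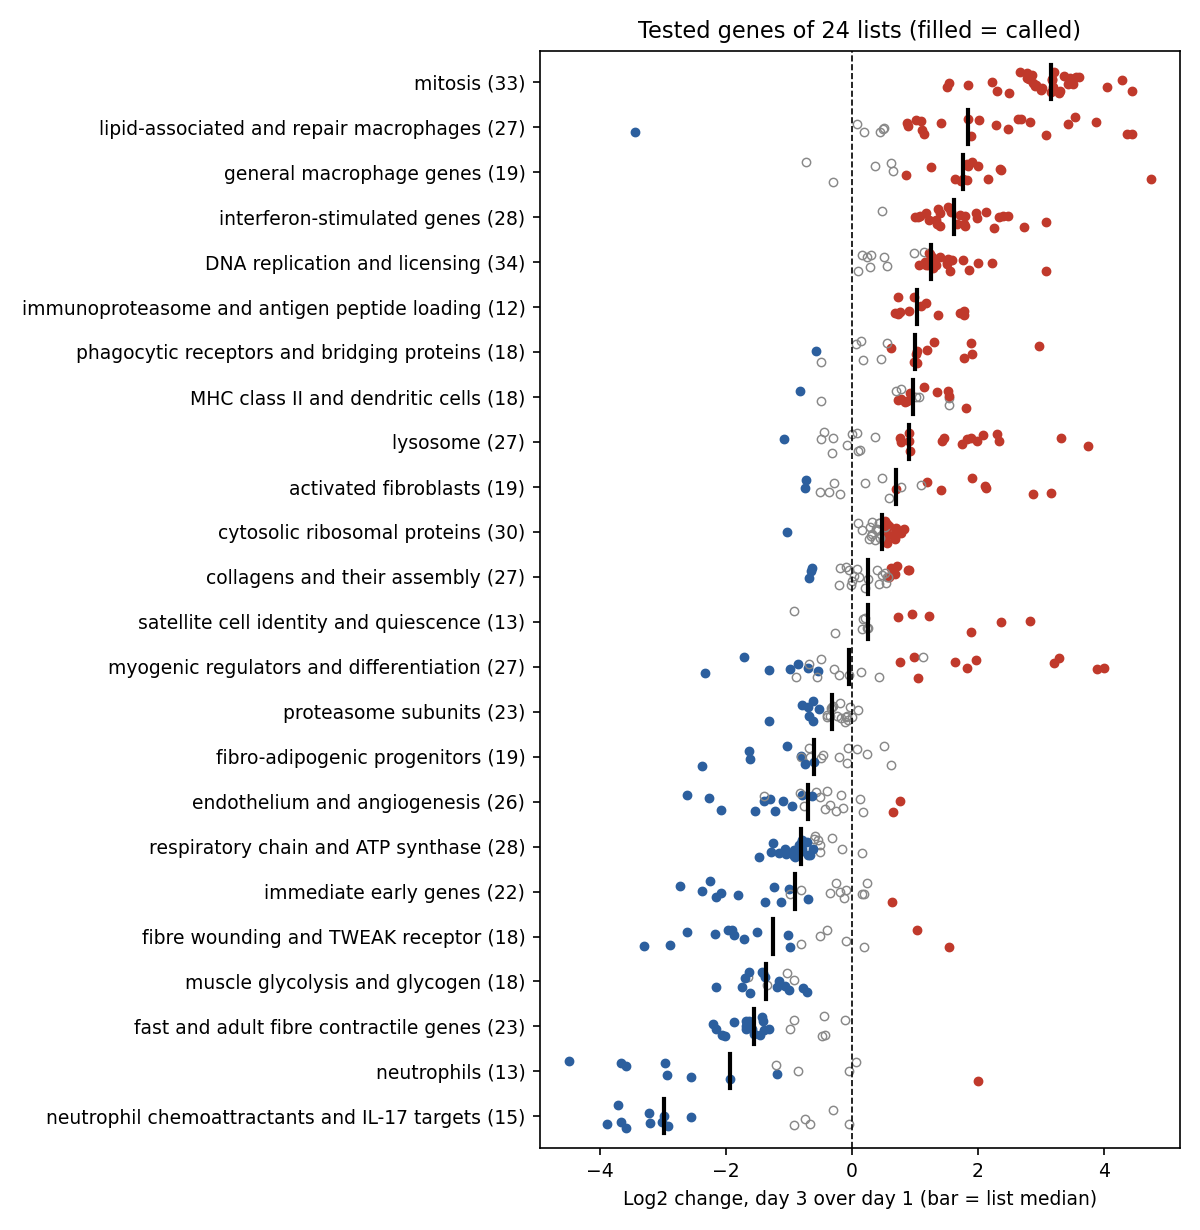
Log2 change from day 1 to day 3 of each tested gene (points) in 24 of the gene lists, with the list median as a bar. Filled points passed the test. Medians run from 3.16 for mitosis to −2.98 for neutrophil chemoattractants and IL-17 targets, around a median of −0.01 over all genes (dashed line).

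Growth signals around the new fibres shifted gene by gene. The neuropeptide galanin (Gal), which many nerve cells and some injured tissues make, had 124, 134 and 97.9 CPM at day 3, against 3.35, 5.36 and 4.25 CPM at day 1 (26.9-fold higher, adjusted p = 1.5e-07), 1 of the 12 largest rises. Igf1, which macrophages and FAPs supply to myoblasts (chromosome 10, 87858265 to 87937042), had 102, 96.8 and 73.3 CPM at day 3, against 52.1, 41.9 and 53.8 CPM at day 1, with no overlap (1.85-fold, log2 change 0.89 ± 0.19, adjusted p = 0.00341). The call was lost with an offset for GC content and length (adjusted p = 0.0625). Of 14 IGF genes 4 rose (2 without day 3 replicate 3) and 5 fell. The binding proteins Igfbp3 and Igfbp6, the RNA-binding Igf2bp2 and the receptor Igf1r fell 2.01-fold to 6.54-fold. The receptor Fgfr4, known from differentiating myoblasts, and the pro-myogenic factor Hes6 rose 4.46-fold to 4.76-fold, and the endothelial Notch ligand Dll4 fell 4.56-fold. In the TGF-β and BMP list 4 of 21 genes rose (7 with library-size scaling), beside 15.1% higher of all genes. None fell (1 without day 1 replicate 2 or day 3 replicate 2 or 3), and the median log2 change was −0.003. The receptor Tgfbr1, the ligand Gdf3 and the target Id2 rose 2.06-fold to 6.42-fold. The secreted Wnt modulators Sfrp1 and Sfrp2 rose 3.13-fold to 4.39-fold, and Sfrp4 and Dkk2 fell 3.42-fold to 7.95-fold, though Dkk2 was not called in fits of the 12 WT libraries (adjusted p = 0.105) or of 23 libraries of both genotypes (0.0647).

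Connective tissue genes changed in both directions. The FAP marker Pdgfra had 54.7, 55.4 and 37.8 CPM at day 3, against 47.7, 60.3 and 62.7 CPM at day 1, with overlap and no call (adjusted p = 0.492). Of 19 FAP genes 7 fell (4 without day 3 replicate 2 or day 1 replicate 3 and 2 with library-size scaling) and none rose (1 without day 1 replicate 3 or day 3 replicate 3 and 3 with library-size scaling; median log2 change −0.60, or −0.17 with library-size scaling). Gelsolin (Gsn) and Pi16, a gene of resting fibroblasts, fell 3.06-fold to 5.21-fold, and decorin (Dcn) fell 2.04-fold, a call lost with library-size scaling (adjusted p = 0.0586). Of 19 genes of activated fibroblasts 8 rose and 2 fell (0 without day 3 replicate 2, 1 without day 1 replicate 1 or 2 and 0 with library-size scaling), with a median log2 change of 0.70. Periostin (Postn, chromosome 3, 54361109 to 54391037), a matrix protein of healing tissue, had 327, 292 and 192 CPM at day 3, against 70.3, 84.5 and 62.9 CPM at day 1 (3.73-fold, log2 change 1.90 ± 0.22, adjusted p = 2.53e-05). The imprinted gene Mest had 196, 211 and 149 CPM at day 3, against 23.1, 23.8 and 15.2 CPM at day 1 (8.97-fold, adjusted p = 5.59e-07). In both the days did not overlap. The matrix protein Cthrc1 and the growth factors midkine (Mdk) and pleiotrophin (Ptn) rose 2.68-fold to 7.33-fold, Mdk not passing the filter with any 1 day 3 library left out.

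Col1a1, of the main fibrillar collagen, had 1883, 1507 and 1268 CPM at day 3, against 1088, 1045 and 1033 CPM at day 1, higher in all 3 day 3 libraries but not called (adjusted p = 0.0805). It was called with library-size scaling (adjusted p = 0.00538), by DESeq2 (0.0264), with no filter (0.0125), with an offset for GC content and length (0.0215) and without day 3 replicate 3 (0.038). Of 27 collagen and collagen assembly genes 6 rose (3 without day 1 replicate 2 and 14 with library-size scaling) and 3 fell (1 without day 3 replicate 2 and 0 with library-size scaling), beside 15.1% higher and 14.8% lower of all genes. Col5a1, Col5a2 and Col6a2 rose 1.62-fold to 1.87-fold. Of 9 tendon genes 5 fell and none rose (1 with library-size scaling), among them fibromodulin (Fmod), Thbs4, Chad and Comp, by 2.36-fold to 6.43-fold, Comp not in the fit of 23 libraries (adjusted p = 0.123). Tenascin X (Tnxb) fell 5.89-fold, and the matricellular Sparcl1 rose 2.15-fold. Of 23 matrix proteases and inhibitors 8 rose and 9 fell (5 without day 1 replicate 2 and 4 with library-size scaling). The protease Adam19 rose 2.73-fold, and Adamts1, Adamts9 and the inhibitor Timp3 fell 3.31-fold to 3.75-fold.

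Vessel genes changed in both directions too. The pan-endothelial marker Pecam1 had 178, 140.1 and 125 CPM at day 3, against 193, 172 and 127 CPM at day 1, with overlap and no call (adjusted p = 0.621). Of 26 endothelial and angiogenic genes 11 fell (5 with library-size scaling) and 2 rose (1 without day 3 replicate 2 or 3 or day 1 replicate 1 or 2) (median log2 change −0.70). The VEGF receptor Flt1 had 13.04, 17.5 and 24.9 CPM at day 3, against 80.6, 83.3 and 66.8 CPM at day 1 (log2 change −2.08 ± 0.24, adjusted p = 2.76e-05). The receptor Flt4, the selectin Selp and the nitric oxide synthase Nos3 fell 2.46-fold to 4.84-fold, and the VEGF receptor Kdr fell 1.93-fold, a call lost with library-size scaling (adjusted p = 0.0978). The apelin receptor Aplnr rose 1.71-fold. Of 12 adipocyte genes 6 fell and none rose (1 without day 3 replicate 1 and 2 with library-size scaling), the lipid droplet gene Cidec and the lipase Pnpla2 by 2.30-fold to 6.90-fold.

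Genes of γδ and regulatory T cells were scarce on both days. Trdc, the constant chain of the γδ T cell receptor, had 5, 4 and 5 counts at day 3, against 2, 3 and 3 counts at day 1. Il17a had 0, 0 and 0 counts at day 3, against 0, 0 and 1 counts at day 1. Foxp3, the factor of regulatory T cells, had 4, 1 and 4 counts at day 3, against 0, 1 and 2 counts at day 1. Trgc1, a constant chain of the γ receptor locus, had 12, 7 and 8 counts at day 3, against 0, 2 and 0 counts at day 1, a ratio of 11.2 with an exact 95% counting interval of 2.82 to 97.3. Trgv6, a variable segment of the γ chain, had 2, 5 and 1 counts at day 3, against 0, 0 and 0 counts at day 1. These 2 genes of the γ chain were chosen after their values were seen. None of the 5 genes passed the filter, so none was tested, and the interval covers counting error only. Of 21 T cell genes 6 were tested. Of these 2 rose (1 without any 1 day 3 library, 4 without day 1 replicate 3 and 4 with library-size scaling) and none fell. The T cell receptor for interleukin 7 (Il7r) had 23.8, 28.5 and 16.4 CPM at day 3, against 1.39, 8.81 and 6.07 CPM at day 1 and was called (adjusted p = 0.00445). Of 13 genes of B cells and plasma cells 5 were tested, of which 3 rose and none fell. The 13 summed to 173 to 229 CPM at day 3 and 90.4 to 181 CPM at day 1, with overlap between days. The 3 that rose, Cd22, Cd79b and Blnk, did so by 2.49-fold to 7.94-fold. Blnk is also made by some myeloid cells, and Cd79b did not pass the filter with any 1 day 3 library left out. The mast cell protease Mcpt4 fell 6.28-fold.

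In Tcrd-DTR muscle most of the genes moved the same way. Day 1 replicate 2 of Tcrd-DTR muscle differed most from its group (chi-square per degree of freedom 30.1 and 22.7, against 9.98 for the other pair), so values without it, an alternative chosen after seeing the data, are given too. In a fit of the 12 libraries of both genotypes over 14887 genes, 1593 genes (10.7%) were higher and 1330 (8.93%) lower at day 3 in Tcrd-DTR muscle, against 1999 (13.4%) and 1899 (12.8%) in WT muscle. Of the 2016 genes higher in WT muscle 1981 (98.3%) changed in the same direction in Tcrd-DTR muscle, 1274 of them past the test. Of the 1983 lower genes 1907 (96.2%) did, 980 of them past the test, and none of the 3999 was called in the opposite direction. Without Tcrd-DTR day 1 replicate 2, 2046 genes were higher and 1507 lower in Tcrd-DTR muscle, 1992 of the higher and 1893 of the lower WT genes changed in the same direction, 1483 and 1134 of them past the test, and 1 was called in the opposite direction. Leaving out day 1 replicate 3 gave 785 lower genes, and day 3 replicate 3 gave 852. The median log2 change of the higher genes was 1.02 in Tcrd-DTR and 1.23 in WT muscle, and that of the lower genes −0.76 in Tcrd-DTR and −1.11 in WT muscle. The genes were chosen by their change in WT muscle, so these medians do not compare the genotypes. In Tcrd-DTR muscle they were 1.27 and −0.82 without day 1 replicate 2.

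The difference of the 2 steps was tested directly, and edgeR called 0 genes (0.0%), with 775 (5.21%) at an unadjusted p under 0.05. DESeq2 called 7 genes, and the edgeR fit with no filter on low counts 48. The log2 change of Myog was 2.18 ± 0.36 in Tcrd-DTR and 3.29 in WT muscle, a difference that did not pass (adjusted p = 0.953). Mymk changed by 3.78 in Tcrd-DTR and 5.10 in WT muscle, and Mki67 by 3.19 in Tcrd-DTR and 3.17 in WT muscle. Gpnmb changed by 4.24 in Tcrd-DTR and 4.46 in WT muscle, and Lcn2 by −3.87 in Tcrd-DTR and −3.67 in WT muscle. The interferon list had a median of 0.75 in Tcrd-DTR and 1.63 in WT muscle, and the class II list 1.601 in Tcrd-DTR and 0.97 in WT muscle. For Ifit3, with 66.4, 40.4 and 49.01 CPM at day 3, against 7.09, 47.9 and 14.5 CPM at day 1 in Tcrd-DTR muscle, the step in WT muscle was larger by 1.14 on the log2 scale (adjusted p = 0.97). Without Tcrd-DTR day 1 replicate 2 the interferon median in Tcrd-DTR muscle was 1.34 and the class II median 2.07, and the step of Ifit3 differed by 0.05 (adjusted p = 0.998). Without it Myog changed by 2.37 ± 0.43 in Tcrd-DTR muscle, Mymk by 3.66, Mki67 by 3.26, Gpnmb by 4.29 and Lcn2 by −4.21, and 0 genes were called for a difference. A p that misses the threshold does not show that the steps were alike.

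**Figure D4:**
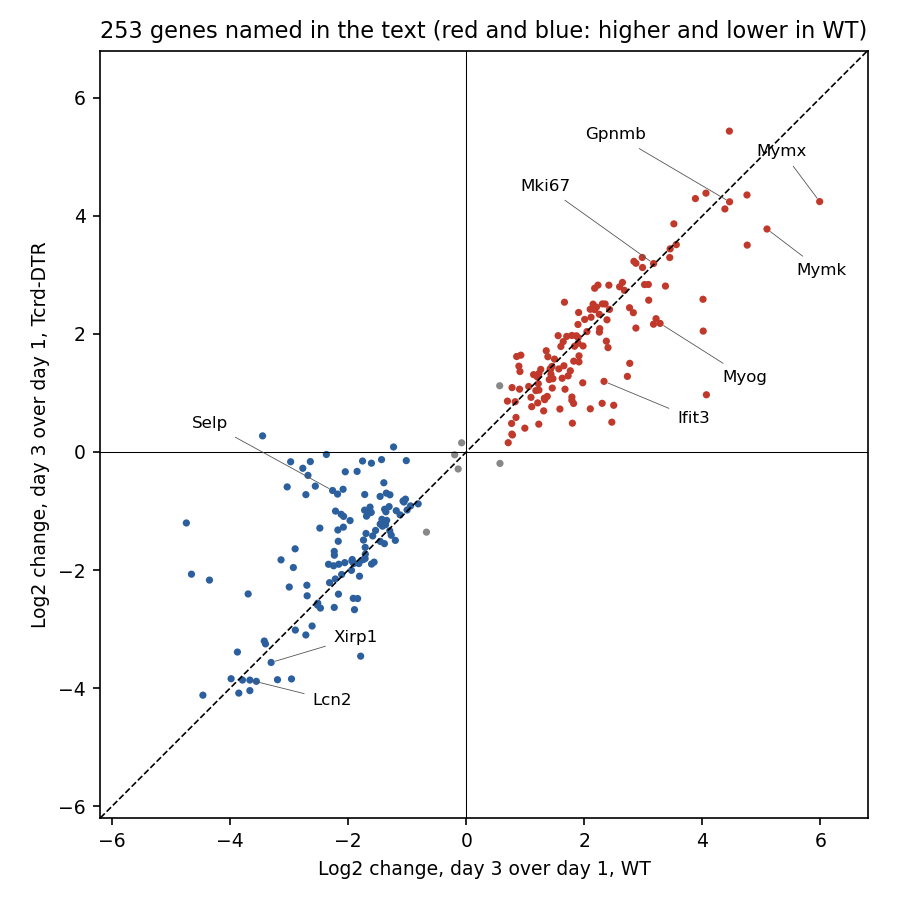
Log2 change from day 1 to day 3 in Tcrd-DTR muscle (vertical axis) against WT muscle (horizontal axis), for 253 genes named in the text. The values come from 1 fit of 12 libraries. The dashed line marks equal changes. The genes were chosen by their WT values, as fixed markers or after their values were seen, so the points do not compare the genotypes as a whole. The test of the difference between the genotypes by edgeR called none of them.

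The later days show how long the day 3 levels lasted. Of the 2016 genes higher at day 3, 1728 (85.7%) had their highest mean of the 4 days at day 3, 241 at day 7 and 47 at day 14. Of the 1983 lower genes, 1250 (63.0%) had their lowest mean at day 3 and 1192 (60.1%) their highest at day 1. These are descriptions with no test, since day 3 chose the genes. Mean levels in WT muscle at days 1, 3, 7 and 14 were 37.1, 359, 196 and 58.3 CPM for Myog. They were 1.62, 55.6, 79.2 and 19.2 CPM for Mymk and 2.68, 44.98, 289 and 27.3 CPM for Myh3, both highest at day 7. The division marker Mki67 had 9.93, 89.4, 6.82 and 7.93 CPM, and Ccnb2 3.24, 69.3, 10.9 and 2.50 CPM, both back near the day 1 level at day 14.

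Among macrophage genes Gpnmb had 80.6, 1766, 118 and 18.6 CPM on these days, and Trem2 31.8, 375, 25.5 and 5.51 CPM. Adgre1 had 72.4, 324, 33.6 and 5.29 CPM, so all 3 stood at day 14 below their level of day 1. Of the genes that fell, Lcn2 had 356, 28.3, 0.818 and 2.38 CPM and Xirp1 2152, 218, 123 and 141 CPM, and neither returned to its day 1 level. Fast myosin Myh4 had 16441, 3679, 17601 and 28137 CPM and Ckm 30412, 7850.0, 33799 and 50773 CPM, both lowest at day 3. Periostin (Postn) had 72.6, 270.4, 277 and 78.8 CPM, nearly level between days 3 and 7, and the interferon gene Ifit3 had 23.1, 116, 43.9 and 16.7 CPM.

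**Figure D5:**
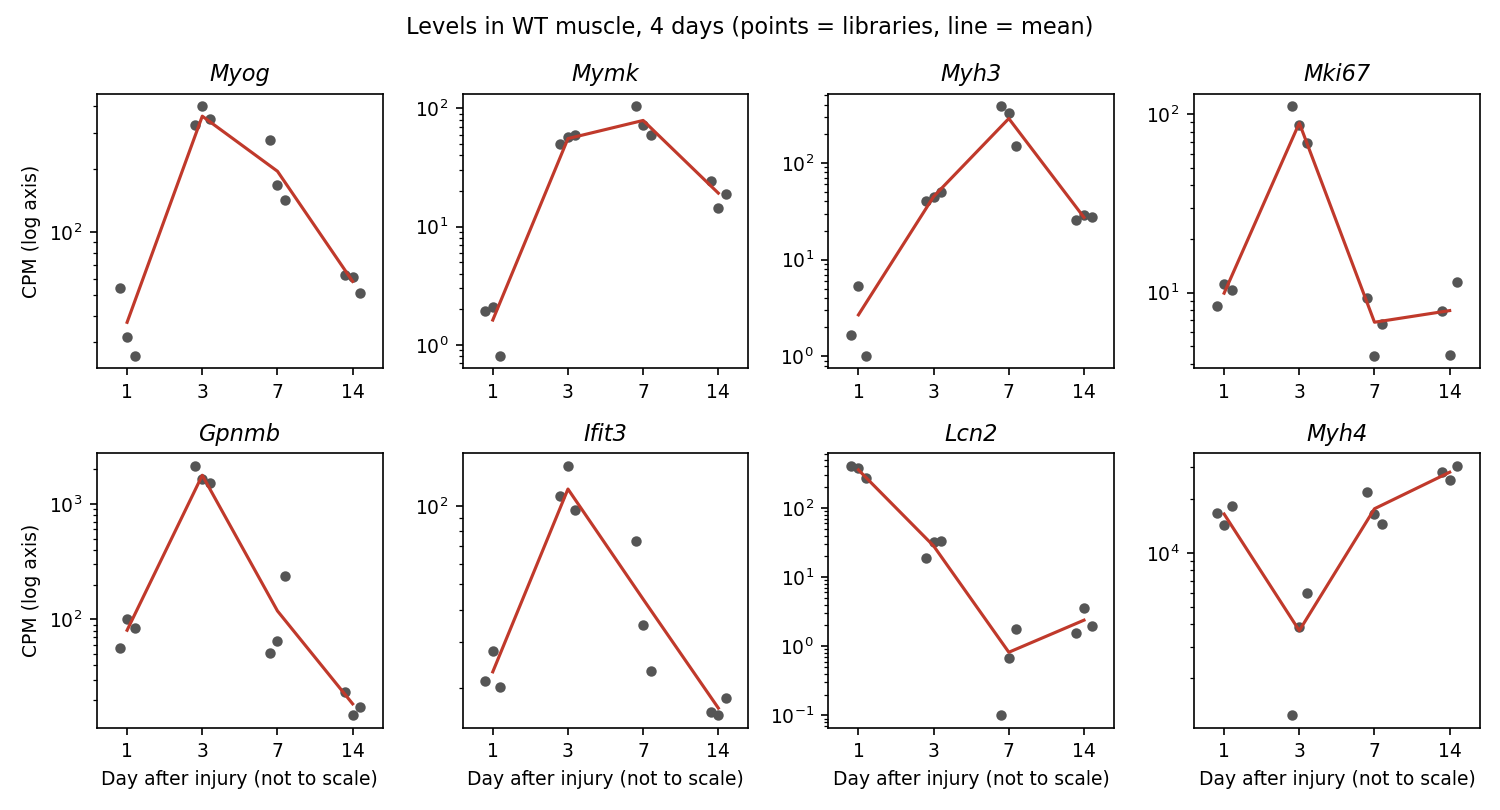
CPM (log axis) of 8 genes in WT muscle at days 1, 3, 7 and 14 after injury, with each library as a point and a line through the means (n = 3 per day). Mki67, Myog, Gpnmb and Ifit3 are highest at day 3, Mymk and Myh3 at day 7, Lcn2 at day 1, and Myh4 is lowest at day 3. The 1 value of 0, of Lcn2 at day 7, is drawn at 0.1 CPM.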

How the data were processed

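Per the submitters' processing notes, reads of polyA RNA were aligned to mm10 with STAR 2.7.3a and counted per gene with featureCounts of Subread 2.0.0. Library kit, annotation and strand setting were not given in the sources used here, so overlapping genes and near-identical copies may share reads. The deposited table holds raw counts per gene symbol, made by the authors, for 39 libraries. From it the 6 WT libraries of days 3 and 1 were taken, with 3579023 to 6502310 counts each. Genes with at least 10 counts in 3 of the 6 libraries were tested with edgeR 4.0.16 (R 4.3.3, TMM scaling, robust quasi-likelihood F-test, two-sided), and p-values were adjusted by Benjamini and Hochberg and called under 0.05. A 12-library fit with Tcrd-DTR muscle gave the interaction of day and genotype. DESeq2 1.42.0, other scalings, filters and fits, a replicate block and leaving out each library were the alternatives. The p-values measure the spread between 3 replicates a day, which the labels call independent and which differed by more than counting noise in every pair. PCR copies cannot be told apart in a table of counts, so the counting interval covers counting error only.

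Gene positions are those of GENCODE vM21 (GRCm38, the mm10 assembly), which gave 1 position for 13187 of the 13357 genes. Promoter windows came from RefSeq (GRCm38.p6). Named genes were the 12 largest changes in each direction (called, no overlap between days, at least 20 CPM on the higher day, symbols with a gene name), from each list the 6 called members of smallest p at most, a fixed set of marker genes, and the few said to be chosen after their values were seen. Some of these genes are not reported here. The members and gene lists were chosen with earlier results of these data known, so list counts are descriptions and no test was run on a list. The fits were also run on simulated counts with few changed genes, as many higher as lower. Such counts hold no shift between days that depends on scaling, so they do not test the choice of scaling.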

Additional observations from a re-analysis of the deposited data

How the results depend on the processing

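With library size alone in place of TMM, 3978 genes were higher and 927 lower at day 3, against 2016 and 1983 in the reported test, which follows from the shift of all log2 changes given above. Testing for more than a 2-fold change gave 441 and 293. DESeq2's size factors, DESeq2, no filter on low counts, edgeR's own filter, fits of 12 or 23 libraries and an offset for GC content and length kept both counts within 1.5 times. Leaving out 1 library gave 1516 to 1891 higher and 1361 to 2023 lower genes, and 465 to 597 called list members against 595. The interaction test called 0 genes with TMM and 0 with any 1 library left out, but 7 by DESeq2 and 48 with no filter, and the cause was not tested. Of the named genes, Hmox1 changed sign with library-size scaling (log2 change 0.35) and without day 3 replicate 3 (0.089, the other libraries left out giving values down to −0.24), as did Pdgfra (0.22) and Pecam1 (0.29) with library-size scaling, and none of these was called by TMM or those settings. A fit with the replicate number as a block called 1783 higher and 1785 lower genes, and Acta1 and Ccl2 lost their calls. Same-numbered libraries of days 3 and 1 had correlations of deviations of −0.0817, 0.0484 and 0.00183, and differently numbered ones −0.155 to 0.130. With 3 libraries a day, these values cannot tell whether the numbers pair the samples. In Tcrd-DTR muscle, leaving out 1 of its libraries, chosen after seeing the data, gave 1132 to 2046 higher and 785 to 1507 lower genes. Cxcl2, Cxcr2, Ccl5, Cd4, Cd79b, Mdk and Mymx gave no value with any 1 library of the day on which they were high left out, since they then failed the filter. Genes with fewer than 10 counts in 3 libraries, Trdc, Trgc1 and Foxp3 among them, were not tested.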

Other observations

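Gene groups not described above held called genes in both directions, counted here beside the 15.1% higher and 14.8% lower of all genes, with no test of a list. The genes of these groups named here kept their calls with each library left out and with library-size scaling, except Cd4, which did not pass the filter with any 1 day 3 library left out. Of 15 genes of HGF and FGF signalling 5 rose (2 without day 3 replicate 2 or day 1 replicate 3 and 3 without day 3 replicate 1 or day 1 replicate 1 or 2) and 3 fell, and the feedback phosphatase Dusp6 rose 1.78-fold. Of 15 genes of inflammatory monocytes 5 fell (3 without day 3 replicate 2 or 3 and 3 with library-size scaling) and 1 rose (3 with library-size scaling). The lectin Clec4e, a receptor for dead cell products, was lower by 3.90-fold, and Ms4a4c was higher by 4.89-fold. In the NF-κB list 4 of 16 genes fell (2 with library-size scaling) and 2 rose (8 with library-size scaling), with the factor Rela lower by 2.11-fold and the adaptor Traf1 higher by 2.80-fold. Of 19 clotting genes 4 rose (1 without day 3 replicate 2 or day 1 replicate 1, 2 without day 1 replicate 2 and 7 with library-size scaling) and 2 fell (1 without day 1 replicate 2 or 3 and 1 with library-size scaling), and factor VII (F7) rose 5.31-fold.

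Mural cell genes went both ways, with 2 of 14 higher (1 without day 3 replicate 2 or 3 or day 1 replicate 2 or 3) and 3 lower (0 without day 3 replicate 2, 1 without day 1 replicate 2 or 3 and 1 with library-size scaling), and smooth muscle actin (Acta2) rose 1.63-fold. Of 22 sterol genes 4 rose (10 with library-size scaling) and 4 fell (2 without day 1 replicate 3 and 1 with library-size scaling). In the embryonic sarcomere list, counted above, Xirp2 fell 3.00-fold and the filament protein nestin (Nes) fell 2.42-fold. The T cell receptor partner Cd4, found on some macrophages too, had 38, 14 and 16 counts at day 3, against 0, 0 and 3 counts at day 1 and rose (adjusted p = 0.00322), a ratio of 18.8 with an exact 95% counting interval of 6.17 to 93.5. Matricellular proteins counted 7 higher (4 without day 3 replicate 1 or day 1 replicate 2) and 7 lower of 24, and the Notch pathway 2 higher (1 without day 3 replicate 2 and 4 with library-size scaling) and 1 lower of 14.

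The 7 genes that DESeq2 called for a difference between the genotypes in the step had an adjusted p of 0.476 in the edgeR test. The log2 change of Tbx1 was −2.07 in Tcrd-DTR and −4.66 in WT muscle. Cd209f changed by −1.20 in Tcrd-DTR and −4.74 in WT muscle, and its neighbour in name Cd209g by −0.53 in Tcrd-DTR and −4.30 in WT muscle. Myoc had 127, 253 and 101 CPM at day 3, against 73.9, 96.7 and 143 CPM at day 1 in Tcrd-DTR muscle. In WT muscle it had 61.2, 32.7 and 46.8 CPM at day 3, against 195, 128 and 153 CPM at day 1. The days overlapped in Tcrd-DTR muscle and did not in WT muscle. Rnf187 changed by −0.51 in Tcrd-DTR and −1.995 in WT muscle, Timm29 by −0.98 in Tcrd-DTR and −2.68 in WT muscle, and Treml4, at under 10 CPM in all 12 libraries, by −4.01 in Tcrd-DTR and 1.59 in WT muscle. Without Tcrd-DTR day 1 replicate 2 the log2 changes in Tcrd-DTR muscle were −2.22 for Tbx1, −1.04 for Cd209f, −0.39 for Cd209g, 0.57 for Myoc, −0.51 for Rnf187, −1.16 for Timm29 and −3.13 for Treml4. These genes were chosen after their values were seen.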
